A study of Mus musculus with 16 samples.

Results

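R7T1 cells, a line of mouse pancreatic beta cells, were treated with BayK8644 alone or with Exendin-4 alone, and the 4 arrays of BayK8644 were set against the 4 arrays of Exendin-4. These are 8 of the 16 arrays of the study. They were chosen by their titles, as those that carry one agent without the other, and matched by time. The labels list the compound as BayK8644(2a) and do not explain the suffix, so it was taken to be BayK8644. The 4 groups used here are BayK8644, Exendin-4, BayK8644 with Exendin-4, and the DMSO vehicle. Each was sampled once at 0.5, 2, 6 and 24 h, and the DMSO array of the same time is the reference for either agent. No source used here gives the doses, or says whether the cells were dividing or growth-arrested. All results come from 1 cell line. Whether each array had a culture of its own is not in the labels. The p-values below therefore describe the spread among arrays, part of which may be technical. No treatment has a replicate at any time, so in the comparisons over the 4 times the times stand in for replicates. There an effect that changes with time counts as error and can keep a gene from being called.

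BayK8644 is a dihydropyridine that holds L-type calcium channels open and so lets calcium into a depolarised beta cell. Exendin-4 is a peptide agonist of the GLP-1 receptor, which acts through the stimulatory G protein and adenylyl cyclase to raise cAMP. Calcium and cAMP both reach the transcription factor CREB, which binds the cAMP response element. Calcium entry also drives calcineurin, calmodulin kinases and the Ras, Raf and ERK cascade, whose target genes include phosphatases and inhibitors that switch the cascade off again.

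Levels are log2 of the deposited GCRMA intensity of the probe set with the highest mean for each gene. A log2 difference of 1 is a doubling. In all, 10610 genes reached log2 4 on at least 2 of the 16 arrays and were tested. The arrays were alike in scale, with a 75th percentile of intensity between 524.2 and 555.7 on the BayK8644 arrays, and between 523.2 and 543.1 on the Exendin-4 arrays. Beta-cell markers were present: Ins2, an insulin gene, had 15.69, 15.63, 15.65 and 15.68 on the BayK8644 arrays (0.5, 2, 6 and 24 h), against 15.60, 15.76, 15.61 and 15.78 on the Exendin-4 arrays. Glp1r, the receptor of Exendin-4, was at 2.04 to 2.08 everywhere, where GCRMA levels off, and its level was thus not measured. Of 10 acinar and duct markers on the array, 7 stayed under log2 4 everywhere, and their summed intensity was 832 to 1233 with BayK8644, 1005 to 1358 with Exendin-4 and 842 to 1209 with DMSO. Of 14 mesenchymal, endothelial and leukocyte markers, 12 stayed under log2 4 everywhere, and the sum was 1301 to 2520 with BayK8644, 1189 to 1304 with Exendin-4 and 1136 to 1306 with DMSO. Vim, the intermediate filament vimentin, was the 1 marker of that list that reached the filter, and it stood at 11.26 on the BayK8644 array of 24 h, against 10.27 on the Exendin-4 array. The part of other cell types in the results below was not tested. In bulk RNA, a change in the share of cells of a type and a change in RNA per cell cannot be told apart.

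The genes that separated the agents were mainly genes that BayK8644 moved. Over the 4 times, with time as a block, 80 of the 10610 genes (0.754%) differed between BayK8644 and Exendin-4 in limma at a Benjamini-Hochberg adjusted p under 0.05. Of these, 52 (0.49% of genes tested) were higher with BayK8644 and 28 (0.264%) were lower. An unadjusted p under 0.05 was reached by 1428 genes, where 530.5 would be the count under no difference. Set against DMSO in the same fit, BayK8644 gave 89 called genes (0.839%), 51 of them higher (0.481%) and 38 lower (0.358%). Exendin-4 against DMSO gave 0 called genes, with 698 at an unadjusted p under 0.05 and a smallest adjusted p of 0.712 in limma. Every statement on a change by Exendin-4 alone below is therefore a value and not a call. These comparisons with DMSO share the DMSO arrays.

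Each of the 80 genes was assigned to the agent that moved it farther from DMSO, as a description. BayK8644 had the larger difference for 75 genes, of which 50 lay above DMSO and 25 below it. Exendin-4 had the larger difference for 5 genes, with Depdc5, Btbd11 and Wdhd1 above DMSO and Eps8 and Dgke below it. In the class above DMSO with BayK8644, 48 of 50 genes lay above DMSO at every time, and 32 were called against DMSO. The median difference from DMSO in that class was 0.52 with BayK8644 and -0.09 with Exendin-4. In the class below DMSO with BayK8644, 24 of 25 lay below it at every time and 14 were called against DMSO, with medians of -0.35 with BayK8644 and 0.05 with Exendin-4. For 21 of the 80 genes the agents lay on opposite sides of DMSO, with the smaller difference at least 50% of the larger. They included Gadd45a, Pde4b, Btbd11 and Lct (lactase), lower with BayK8644, and Ptger4, Vegfa and Dusp18, an atypical phosphatase, higher with it. Choosing genes by the difference between agents favours such opposite sides. The ranges of the agents' 4 arrays did not overlap for 51 of the 80 genes, against 371 of all 10610 (3.5%). The 80 were chosen by the difference on these same arrays, which favours ranges that do not overlap. That share is thus no further support for the calls.

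**Figure D1:**
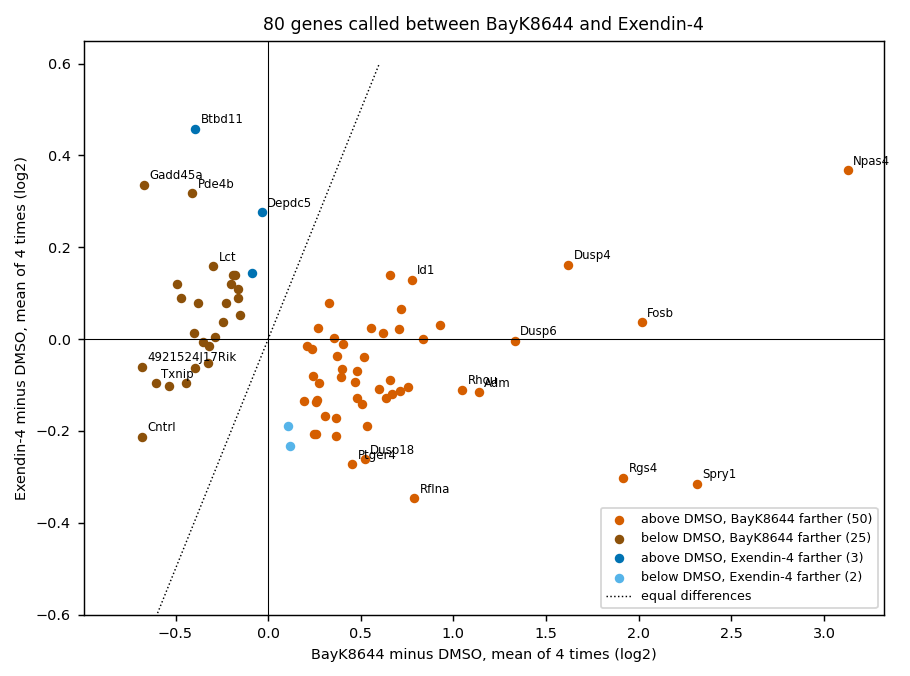
Mean log2 difference from DMSO over the 4 times for the 80 called genes, BayK8644 on the horizontal axis and Exendin-4 on the vertical axis, coloured by class, with a dotted line where the differences are equal. The BayK8644 differences reach 3.13 (Npas4), while those of Exendin-4 lie between -0.35 and 0.46.

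The count of called genes moved with single arrays. Leaving out the BayK8644 array of 0.5, 2, 6 or 24 h gave 203, 15, 18 and 24 called genes in place of 80. Leaving out the Exendin-4 array of 0.5, 2, 6 or 24 h gave 270, 17, 13 and 37. Without the combination array of 0.5, 2 or 6 h the count was 129, 48 and 49, and without the DMSO array of 2 or 6 h it was 51 and 50. Differences between the agents were smaller at 0.5 h than later, with an SD over genes of 0.162 at 0.5 h, 0.233 at 2 h, 0.252 at 6 h and 0.293 at 24 h. With each array left out in turn, 12 of the 80 genes kept their call: Npas4, Spry1, Dusp5, Dusp6, Trib1, Tent5a, Id1, Bmp2, Ptger4, Gadd45a, Pde4b and 4921524J17Rik. Every other gene named below as called over the 4 times lost its call without at least 1 array, and none of the 80 changed sign in any alternative run.

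Npas4, an activity-dependent transcription factor known from calcium signalling in neurons, had the largest difference. It stood at 8.12, 8.86, 8.99 and 9.11 (0.5, 2, 6 and 24 h) with BayK8644, against 5.94, 5.62, 5.92 and 6.54 with Exendin-4 and 5.61, 5.99, 5.48 and 5.47 with DMSO. Every BayK8644 array lay above every Exendin-4 and DMSO array. Npas4 was 6.78-fold higher with BayK8644 than with Exendin-4 (log2 difference 2.76 ± 0.21, SE; limma adjusted p = 3.08e-05), and higher at 4 of 4 times. Fosb, a subunit of AP-1, had 6.60, 4.73, 5.25 and 4.65 with BayK8644, against 4.0, 3.32, 3.25 and 2.75 with Exendin-4 and 3.45, 3.23, 3.24 and 3.25 with DMSO. The BayK8644 values lay above all others, while the Exendin-4 and DMSO values overlapped and lay at or under the filter level of log2 4, so the floor sets part of the difference between the agents of 1.98 ± 0.35 (SE; limma adjusted p = 0.0186). Fosb could not have passed the filter without the arrays with BayK8644, so the filter chose it by the same difference that was tested. Maff, a small Maf protein that pairs with other leucine zipper factors, had 9.43, 10.49, 10.07 and 9.61 with BayK8644, against 8.86, 9.22, 9.06 and 8.87 with Exendin-4 and 8.83, 8.89, 9.03 and 9.13 with DMSO. Its highest value was that of BayK8644 at 2 h, and its difference was 0.90 ± 0.14 (SE; limma adjusted p = 0.0103).

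The promoters of a few genes picked by hand are shown from RefSeq (GRCm38.p6), because calcium and cAMP both act through CREB. Each is given as 250 bases before and 50 bases from the transcription start. As a hand-picked set they do not stand for the called genes at large, and Egr2 and Sst were not called over the 4 times. Capitals mark matches, on either strand, to the full cAMP response element TGACGTCA, to its short form TGACG or CGTCA, which the full form contains, or to the serum response element called the CArG box. The promoters of Npas4 (chr19:4989922-4990221, minus strand) and Dusp5 (chr19:53528895-53529194, plus strand), a phosphatase of ERK, are those of genes higher with BayK8644. Egr2 (chr10:67537619-67537918, plus strand, 1 of 5 starts listed) was called at 0.5 h, and Sst (chr16:23890795-23891094, minus strand) at 24 h. Pde4b (chr4:102421305-102421604, plus strand, 1 of 4 starts listed), a phosphodiesterase that breaks down cAMP, was lower with BayK8644 than with Exendin-4. For Egr2 and Pde4b the start with most kinds of the motifs counted below was taken, and the first by position where starts tied.
Npas4: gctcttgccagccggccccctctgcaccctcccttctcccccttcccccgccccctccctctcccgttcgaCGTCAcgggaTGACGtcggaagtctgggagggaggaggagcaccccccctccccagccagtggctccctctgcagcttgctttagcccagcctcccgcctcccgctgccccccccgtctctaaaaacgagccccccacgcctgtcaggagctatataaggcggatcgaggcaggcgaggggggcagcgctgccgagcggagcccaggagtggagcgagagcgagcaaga
Egr2: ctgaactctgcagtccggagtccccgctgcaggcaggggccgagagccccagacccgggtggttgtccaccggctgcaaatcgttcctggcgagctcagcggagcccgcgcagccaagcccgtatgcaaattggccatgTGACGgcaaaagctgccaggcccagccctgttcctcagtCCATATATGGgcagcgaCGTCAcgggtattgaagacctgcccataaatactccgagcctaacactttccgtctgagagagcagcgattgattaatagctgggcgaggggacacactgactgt
Dusp5: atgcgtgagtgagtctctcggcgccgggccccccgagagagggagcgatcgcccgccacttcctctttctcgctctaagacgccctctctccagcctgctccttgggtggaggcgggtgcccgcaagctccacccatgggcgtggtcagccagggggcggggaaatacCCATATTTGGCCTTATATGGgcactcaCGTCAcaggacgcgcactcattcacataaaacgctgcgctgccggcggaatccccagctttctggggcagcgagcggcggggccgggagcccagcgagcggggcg
Sst: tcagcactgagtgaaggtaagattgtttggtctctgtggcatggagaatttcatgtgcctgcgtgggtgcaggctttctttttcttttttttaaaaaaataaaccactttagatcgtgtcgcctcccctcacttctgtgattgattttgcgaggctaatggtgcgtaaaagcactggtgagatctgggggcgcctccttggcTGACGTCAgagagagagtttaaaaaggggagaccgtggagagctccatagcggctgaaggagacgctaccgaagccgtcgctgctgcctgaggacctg
Pde4b: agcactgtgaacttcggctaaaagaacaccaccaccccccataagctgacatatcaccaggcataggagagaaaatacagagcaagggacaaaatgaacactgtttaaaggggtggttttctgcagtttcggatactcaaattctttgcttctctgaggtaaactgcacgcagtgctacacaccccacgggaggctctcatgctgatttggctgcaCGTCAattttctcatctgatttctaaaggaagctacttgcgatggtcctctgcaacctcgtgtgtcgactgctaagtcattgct

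Npas4 held the short element at -179 to -175 and at -169 to -165, counted from the start. Egr2 held it at -111 to -107 and at -55 to -51, with a CArG box at -72 to -63. Dusp5 held it at -55 to -51, beside CArG boxes at -82 to -73 and -72 to -63. Sst held the full element at -48 to -41, and Pde4b held the short one at -34 to -30.

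Over larger sets these motifs were counted as a description. The full element was in 1.79% of all 32851 promoters listed, and in 2.04% of the 49 promoters found for 38 of the 50 genes in the class above DMSO with BayK8644. The short element was in 20.8% of all promoters, in 24.5% of those 49, and in 20% of the 30 promoters found for 21 of the 25 in the class below it. Shares in those 49 promoters, against all promoters, were 10.2% and 4.12% for the Egr site (GCGGGGGCG or GTGGGGGCG), 8.16% and 5.2% for the AP-1 site (TGACTCA or TGAGTCA), 12.2% and 7.15% for the E-box (CACGTG), and 4.08% and 1.63% for the CArG box. These shares rest on 5, 4, 6 and 2 of the 49 promoters.

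Several genes that restrain the ERK cascade were higher with BayK8644. Of 18 measured genes on a list of MAP kinase feedback genes, 6 were higher with BayK8644 than with Exendin-4 over the 4 times and 0 were lower, beside 0.49% higher among all genes tested. They were Spry1, Dusp4, Dusp6, Spry2, Spred2 and Dusp5, and 14 of the 18 had a positive difference. The list's median difference was 0.43, against -0.01 for all genes, with a median of 0.33 for BayK8644 minus DMSO and of -0.01 for Exendin-4 minus DMSO. This list was chosen with earlier results of these data known, so its counts and median are no independent evidence. Spry1, an inhibitor of receptor tyrosine kinase signalling, had 6.52, 7.66, 7.81 and 8.61 with BayK8644, against 5.40, 4.75, 4.55 and 5.38 with Exendin-4 and 5.16, 5.37, 5.13 and 5.68 with DMSO. All 4 BayK8644 values lay above all others, and the Exendin-4 values at 2, 6 and 24 h lay under the DMSO values. The difference was 2.63 ± 0.27 (SE; limma adjusted p = 0.000429), a 6.19-fold higher level. Dusp6, a phosphatase specific for ERK, had 9.91, 9.94, 10.21 and 10.54 with BayK8644, against 9.27, 8.61, 8.52 and 8.88 with Exendin-4 and 9.14, 8.60, 8.57 and 8.98 with DMSO. The Exendin-4 and DMSO arrays overlapped throughout, while BayK8644 stood 2.52-fold above Exendin-4 (1.33 ± 0.15, SE; limma adjusted p = 0.000687).

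Dusp4, a nuclear phosphatase of MAP kinases, had 9.90, 11.04, 11.01 and 11.14 with BayK8644, against 9.34, 9.38, 9.02 and 9.51 with Exendin-4 and 9.27, 8.89, 9.06 and 9.38 with DMSO. Its difference was 1.46 ± 0.23 (SE; limma adjusted p = 0.0099), and smallest at 0.5 h. Dusp5, also a nuclear ERK phosphatase, had 11.39, 11.77, 11.84 and 11.86 with BayK8644, against 11.20, 11.00, 11.19 and 11.24 with Exendin-4 and 11.18, 11.09, 11.23 and 11.28 with DMSO. The BayK8644 values were the highest at every time, with a difference of 0.56 ± 0.08 (SE; limma adjusted p = 0.00346). Spry2 and Spred2, inhibitors of the same cascade, differed by 0.83 ± 0.13 and 0.61 ± 0.11 (SE; limma adjusted p = 0.00931 and 0.0263). The probe sets of Spred2 above the filter did not all have the same sign, and the value is that of the brightest. Etv4 and Etv5, Ets factors that act below ERK, missed the threshold over the 4 times with differences of 1.88 and 1.37 (limma adjusted p = 0.057 and 0.0726). At single times Etv4 was called at 6 and 24 h, and Etv5 at 2, 6 and 24 h. Dusp1, a phosphatase of stress kinases and ERK, differed by 0.08 (limma adjusted p = 0.914), with 11.82 at 0.5 h with BayK8644, against 11.08 with Exendin-4 and 10.80 with DMSO.

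Among regulators of G proteins and of calcium channels, Rgs4, which shortens signalling by Gi and Gq, had 6.46, 7.80, 8.14 and 8.13 with BayK8644, against 6.02, 6.02, 4.28 and 5.34 with Exendin-4 and 4.75, 5.76, 5.90 and 6.47 with DMSO. The BayK8644 values lay above the other groups at each time, by a difference from Exendin-4 of 2.22 ± 0.40 (SE; limma adjusted p = 0.0223). It was the 1 gene of 10 measured RGS genes that was called. Gem, a small GTPase that restrains voltage-gated calcium channels, had 11.09, 11.25, 11.13 and 11.41 with BayK8644, against 10.52, 10.49, 10.10 and 10.44 with Exendin-4 and 10.11, 10.42, 10.37 and 10.65 with DMSO. The BayK8644 range lay wholly above the other 2 ranges, with a difference of 0.83 ± 0.12 (SE; limma adjusted p = 0.00686). Rrad, a GTPase of the same family, had 2.90, 5.38, 3.35 and 3.04 with BayK8644, against 2.94, 2.73, 2.62 and 2.59 with Exendin-4 and 2.74, 2.57, 2.62 and 2.95 with DMSO. Only the BayK8644 array of 2 h was above log2 4 among these 12 arrays, and its difference of 2.65 ± 0.21 at that time (SE; limma adjusted p = 0.00148) is set in part by the floor. Rrad thus passed the filter only through arrays with BayK8644, and the filter chose it by the same difference that was tested.

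Of genes for secreted factors and receptors, Bmp2, a ligand of the BMP family, had 9.89, 10.29, 10.02 and 9.90 with BayK8644, against 9.35, 8.98, 9.18 and 9.14 with Exendin-4 and 9.51, 9.04, 9.22 and 9.30 with DMSO. Its BayK8644 values were all above the others, and the difference was 0.86 ± 0.11 (SE; limma adjusted p = 0.00262). Id1, a helix-loop-helix inhibitor known as a BMP target, had 12.31, 11.87, 12.12 and 11.93 with BayK8644, against 11.86, 11.34, 11.21 and 11.22 with Exendin-4 and 11.58, 11.16, 11.22 and 11.18 with DMSO. BayK8644 was the higher at each time (0.65 ± 0.07, SE; limma adjusted p = 0.000758), and Id2 of the same family differed by 0.32 ± 0.05 (SE; limma adjusted p = 0.00931). Adm, the precursor of the peptide adrenomedullin, differed by 1.25 ± 0.19 (SE; limma adjusted p = 0.00926), and Met, the receptor of hepatocyte growth factor, by 0.79 ± 0.16 (SE; limma adjusted p = 0.0441). Ptger4, a receptor of prostaglandin E2 that couples to the stimulatory G protein, had 9.0, 9.06, 9.02 and 9.05 with BayK8644, against 8.73, 8.20, 8.10 and 8.21 with Exendin-4 and 8.72, 8.52, 8.57 and 8.51 with DMSO. BayK8644 was above DMSO at every time and Exendin-4 was under it at 2, 6 and 24 h, and the agents differed by 0.72 ± 0.09 (SE; limma adjusted p = 0.00158), with 0.45 from DMSO for BayK8644 and -0.27 for Exendin-4. Vegfa, a growth factor of blood vessels, differed by 0.46 ± 0.07 (SE; limma adjusted p = 0.00931), with means of 10.98 ± 0.08 with BayK8644, 10.52 ± 0.22 with Exendin-4 and 10.72 ± 0.13 with DMSO (SD over the 4 times, n = 4 each, 1 array a time).

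Trib1 and Tent5a had the smallest adjusted p-values after Npas4. Trib1, a pseudokinase scaffold, had 9.50, 9.18, 9.27 and 9.26 with BayK8644, against 8.77, 8.44, 8.48 and 8.54 with Exendin-4 and 8.89, 8.51, 8.55 and 8.62 with DMSO. Its difference lay between 0.72 and 0.80 at all 4 times and was 0.75 ± 0.06 over them (SE; limma adjusted p = 4.49e-05). Tent5a, a poly(A) polymerase, had 11.73, 11.69, 11.84 and 12.05 with BayK8644, against 11.30, 10.96, 11.07 and 11.38 with Exendin-4 and 11.26, 10.87, 11.06 and 11.26 with DMSO. The difference was 0.65 ± 0.06 (SE; limma adjusted p = 8.42e-05), and the BayK8644 range lay above both others.

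**Figure D2:**
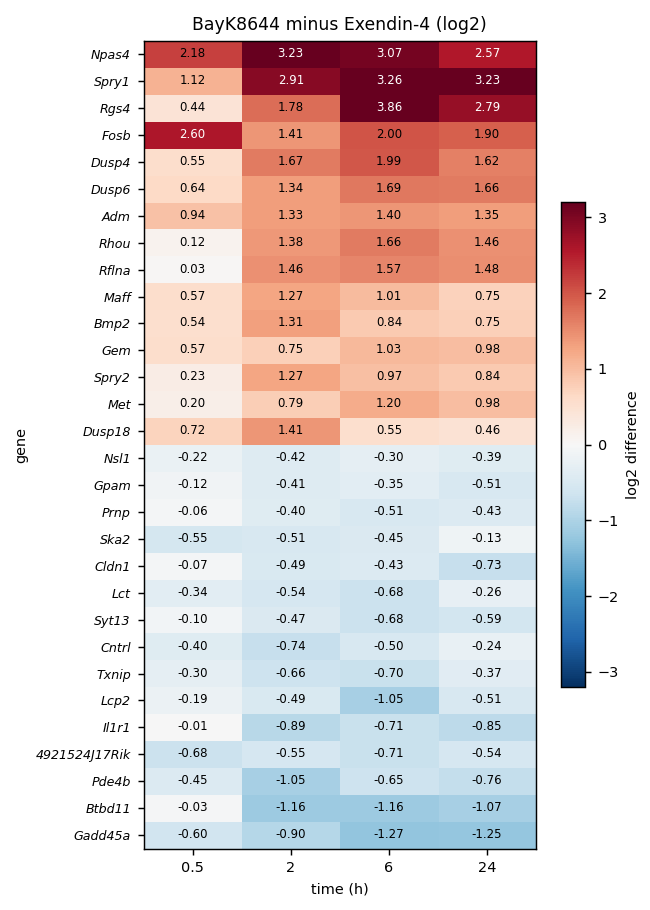
BayK8644 minus Exendin-4 (log2, 1 array each) at 0.5, 2, 6 and 24 h for the 15 called genes with the largest positive and the 15 with the largest negative difference over the 4 times, in red where BayK8644 was higher and in blue where it was lower. Spry1 shows 1.12, 2.91, 3.26 and 3.23 and Gadd45a -0.60, -0.90, -1.27 and -1.25.

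The genes lower with BayK8644 than with Exendin-4 moved less, with 1 difference beyond 1 on the log2 scale. Gadd45a, a growth arrest and DNA damage gene, had 12.10, 11.90, 11.49 and 11.27 with BayK8644, against 12.70, 12.80, 12.76 and 12.52 with Exendin-4 and 12.40, 12.36, 12.35 and 12.33 with DMSO. The 3 groups did not overlap at all, with BayK8644 under DMSO and Exendin-4 above it at each of the 4 times. Gadd45a was 2.01-fold lower with BayK8644 than with Exendin-4 (-1.01 ± 0.11, SE; limma adjusted p = 0.000687), as -0.67 from DMSO with BayK8644 (limma adjusted p = 0.0168) and 0.34 with Exendin-4 (limma adjusted p = 0.725). 4921524J17Rik had 9.10, 9.12, 9.01 and 8.89 with BayK8644, against 9.78, 9.66, 9.72 and 9.43 with Exendin-4 and 9.64, 9.67, 9.80 and 9.73 with DMSO. Its BayK8644 values lay under all others, by -0.62 ± 0.07 from Exendin-4 (SE; limma adjusted p = 0.000547).

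Txnip, an inhibitor of thioredoxin that glucose induces in beta cells, had 9.15, 8.75, 8.56 and 8.80 with BayK8644, against 9.45, 9.41, 9.26 and 9.18 with Exendin-4 and 9.56, 9.29, 9.32 and 9.51 with DMSO. BayK8644 was the lower at every time (-0.51 ± 0.08, SE; limma adjusted p = 0.0099). Syt13, an atypical synaptotagmin of endocrine cells, had 11.56, 11.24, 11.07 and 11.09 with BayK8644, against 11.66, 11.71, 11.75 and 11.68 with Exendin-4 and 11.59, 11.76, 11.55 and 11.59 with DMSO. The gap was small at 0.5 h and wider at the later times, and over all 4 it was -0.46 ± 0.09 (SE; limma adjusted p = 0.0354). Il1r1, the receptor of interleukin-1, differed by -0.61 ± 0.13, Lcp2, an adaptor known from T-cell receptor signalling, by -0.56 ± 0.11, and Cldn1, a tight junction protein, by -0.43 ± 0.09 (SE; limma adjusted p = 0.0391, 0.0374 and 0.0464). For Il1r1 the arrays of 0.5 h stood at 10.93 with BayK8644 and 10.94 with Exendin-4, and the whole difference came from 2, 6 and 24 h. Cntrl, a centriole protein, differed by -0.47, Ska2, a part of the spindle attachment complex, by -0.41, Gpam, an enzyme of triglyceride synthesis, by -0.35, and Prnp, the prion protein, by -0.35 (limma adjusted p between 0.0103 and 0.0488). Of 19 measured genes on the list of cell cycle inhibitors, Gadd45a was the 1 that was called, and of 22 secretory granule genes, Syt13 was.

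A smaller set of genes lay above DMSO with Exendin-4, and Pde4b was among those with a call in every fit that left out 1 array. Pde4b had 10.26, 9.64, 9.88 and 9.73 with BayK8644, against 10.70, 10.70, 10.53 and 10.49 with Exendin-4 and 10.49, 10.19, 10.22 and 10.25 with DMSO. At each time BayK8644 lay under DMSO and Exendin-4 above it, and the ranges of the agents did not overlap. The difference was -0.73 ± 0.08 (1.66-fold lower with BayK8644, SE; limma adjusted p = 0.000547). From DMSO it was -0.41 with BayK8644 (limma adjusted p = 0.0284) and 0.32 with Exendin-4 (limma adjusted p = 0.712). Btbd11, a protein with BTB and ankyrin domains, had 8.83, 8.81, 8.28 and 7.82 with BayK8644, against 8.85, 9.98, 9.44 and 8.88 with Exendin-4 and 9.05, 8.94, 8.75 and 8.57 with DMSO. The agents were level at 0.5 h and lay apart later, on either side of DMSO, for a difference of -0.85 ± 0.17 (SE; limma adjusted p = 0.0374). Depdc5, a subunit of the GATOR1 complex that restrains mTORC1, had 8.42, 8.21, 8.49 and 8.49 with BayK8644, against 8.65, 8.64, 8.82 and 8.75 with Exendin-4 and 8.49, 8.22, 8.61 and 8.43 with DMSO. BayK8644 was close to DMSO and Exendin-4 above it at every time, with a difference between agents of -0.31 ± 0.06 (SE; limma adjusted p = 0.0342).

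Wdhd1, a DNA replication factor, was the third gene of this class (-0.23 ± 0.05, SE; limma adjusted p = 0.0374). Eps8, an actin-binding substrate of the EGF receptor, and Dgke, a diacylglycerol kinase, lay under DMSO with Exendin-4 by -0.19 and -0.23, against 0.10 and 0.12 above it with BayK8644. Their differences between the agents were 0.29 and 0.35 (limma adjusted p = 0.0266 and 0.0374).

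Crem, Ppargc1a, Pde10a and Nr4a3 had their highest Exendin-4 value at 2 h, and none was called there. Crem, which encodes cAMP-responsive activators and the repressor ICER, had 7.02, 7.02, 7.08 and 7.06 with BayK8644, against 7.09, 8.44, 7.58 and 7.18 with Exendin-4 and 7.17, 6.78, 6.94 and 7.19 with DMSO. BayK8644 stayed near DMSO throughout, and the Exendin-4 value was highest at 2 h. The Crem difference was -1.41 ± 0.29 at 2 h (SE; limma adjusted p = 0.125) and -0.53 ± 0.21 over the 4 times (SE; limma adjusted p = 0.295). Ppargc1a, a transcriptional coactivator that CREB induces in liver, had 3.66, 3.94, 3.83 and 3.69 with BayK8644, against 3.60, 5.76, 3.60 and 3.58 with Exendin-4 and 3.67, 3.42, 3.57 and 3.74 with DMSO. The 2 h array of Exendin-4 was the 1 value above log2 4 among these 12, and the difference there was -1.82 ± 0.31 (SE; limma adjusted p = 0.0617). Ppargc1a thus passed the filter only through arrays with Exendin-4. Pde10a, a phosphodiesterase of cAMP and cGMP, had 9.48 at 2 h with BayK8644, against 10.17 with Exendin-4 and 8.93 with DMSO. Nr4a3, an orphan nuclear receptor, had 4.63 at 2 h with BayK8644, against 5.75 with Exendin-4 and 4.63 with DMSO. The differences of Pde10a and Nr4a3 at 2 h did not pass (-0.68 and -1.12, with a limma adjusted p of 0.492 for Pde10a and a larger one for Nr4a3).

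As a list, 22 measured CREB and cAMP target genes held 1 gene higher with BayK8644 (Gem) and 1 lower (Pde4b) over the 4 times. The list's median was -0.03 between the agents, 0.05 for BayK8644 minus DMSO and 0.13 for Exendin-4 minus DMSO. Members of this list lay on both sides: Vgf, a granule peptide precursor, had 9.94, 11.16, 11.48 and 11.38 with BayK8644, against 9.85, 10.45, 10.24 and 10.21 with Exendin-4 and 9.65, 9.91, 9.78 and 9.95 with DMSO. Both agents lay above DMSO at each time and BayK8644 farther, and Vgf was called between the agents at 6 and 24 h (1.24 and 1.17, limma adjusted p = 0.00252 and 0.0032). Of 22 measured components of the cAMP pathway, such as G proteins, cyclases and kinase subunits, 0 were called over the 4 times, and their median was -0.06.

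**Figure D3:**
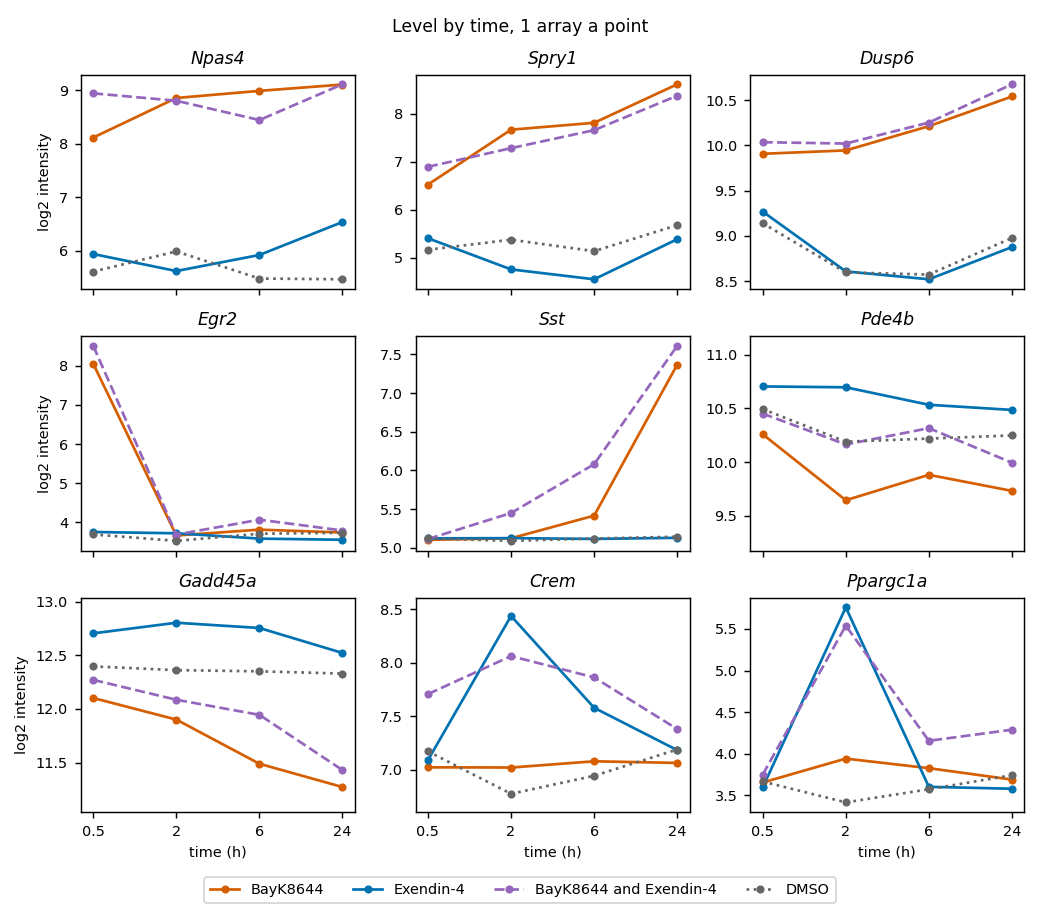
Log2 intensity of 9 genes at 0.5, 2, 6 and 24 h (1 array a point) with BayK8644, Exendin-4, the combination (dashed) and DMSO (dotted). Egr2 peaks at 8.05 with BayK8644 at 0.5 h, Crem at 8.44 with Exendin-4 at 2 h, and Sst reaches 7.37 with BayK8644 at 24 h.

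The genes called between the agents differed between the times. With an effect of each agent at each time, whose error is the departure from additivity, the counts were 4 genes at 0.5 h (0.0377%), 40 at 2 h (0.377%), 75 at 6 h (0.707%) and 103 at 24 h (0.971%). Of these, 4, 32, 60 and 73 (0.0377%, 0.302%, 0.566% and 0.688% of genes tested) were higher with BayK8644, and 0, 8, 15 and 30 (0%, 0.0754%, 0.141% and 0.283%) were lower. BayK8644 had the larger difference from DMSO for 4 of 4, 37 of 40, 70 of 75 and 101 of 103. Genes called at 2, 6 and 24 h alike numbered 16: Npas4, Nr4a1, Spry1, Dusp4, Dusp5, Dusp6, Etv5, Gem, Rhou, Rflna, Tent5a, Myadm, Tubb6, Pde4b, Gadd45a and Btbd11. A single array per treatment and time stands behind each value, so these counts moved with single arrays. At 2 h the count of 40 was 20 without any 1 of the 4 arrays of 0.5 h, 25 without any 1 of those of 6 h, 26 without the DMSO or the combination array of 2 h, and 0 without the BayK8644 or the Exendin-4 array of 2 h. At 6 h the count of 75 was 27 without any 1 array of 0.5 h, 42 without any 1 of 2 h or without the DMSO or the combination array of 6 h. Of the agents' own arrays of 6 h, leaving out that of BayK8644 gave 1 and that of Exendin-4 gave 0. At 24 h the count of 103 was 57 or 58 without any 1 array of 0.5 h, 56 to 64 without any 1 of 6 h, and 193 or 192 without the DMSO or the combination array of 24 h. Leaving out the BayK8644 array of 24 h gave 365 and leaving out that of Exendin-4 gave 0. At 0.5 h the count of 4 was 1, Egr2, without the BayK8644 array of that time. Where the array of an agent at the time itself is left out, the value rests on the other arrays and on additivity.

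At 0.5 h the called genes were 4 immediate-early genes. Egr2, a zinc finger transcription factor, had 8.05, 3.66, 3.81 and 3.74 with BayK8644, against 3.75, 3.72, 3.58 and 3.55 with Exendin-4 and 3.69, 3.53, 3.71 and 3.73 with DMSO. Only the BayK8644 array of 0.5 h was above log2 4 in these 3 groups, and the difference there was 4.30 ± 0.22 (SE; limma adjusted p = 0.000128), a size set partly by the floor. Egr2 thus passed the filter only through arrays with BayK8644, and the filter chose it by the same difference that was tested. Egr1, the best known member of the same family, had 13.76, 11.61, 11.32 and 11.23 with BayK8644, against 11.31, 10.33, 10.27 and 10.32 with Exendin-4 and 10.56, 10.20, 10.21 and 10.30 with DMSO. It was highest at 0.5 h with BayK8644 and remained above DMSO at all 4 times, with a difference from Exendin-4 of 2.45 ± 0.19 at 0.5 h (SE; limma adjusted p = 0.00127). Fos, an AP-1 subunit, had 12.69, 10.41, 10.20 and 10.24 with BayK8644, against 10.54, 9.80, 9.68 and 9.75 with Exendin-4 and 9.72, 9.68, 9.69 and 9.66 with DMSO. Its 0.5 h value with Exendin-4 lay between those of BayK8644 and DMSO, and the agents differed by 2.16 ± 0.14 there (SE; limma adjusted p = 0.00042). Ier2, a further immediate-early gene, differed by 1.27 ± 0.15 at 0.5 h (SE; limma adjusted p = 0.0326).

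At 2 h Nab2, a corepressor of Egr proteins, had 10.79 with BayK8644, against 8.64 with Exendin-4 and 8.29 with DMSO (difference 2.15 ± 0.23, SE; limma adjusted p = 0.00723). Nr4a1, an orphan nuclear receptor that calcium and cAMP are both known to induce, had 11.76, 11.23, 11.05 and 10.68 with BayK8644, against 11.31, 9.84, 9.23 and 9.52 with Exendin-4 and 9.31, 8.88, 8.99 and 9.37 with DMSO. Both agents lay far above DMSO at 0.5 h and close to each other, and the Exendin-4 values were near DMSO by 6 h while those of BayK8644 were not. The difference was 0.44 ± 0.12 at 0.5 h (SE; limma adjusted p = 1), 1.39 ± 0.12 at 2 h and 1.82 ± 0.12 at 6 h (SE; limma adjusted p = 0.00186 and 0.000241). On the lower side at 2 h, Lrrc10b, for which no role is given here, had 8.52 with BayK8644, against 9.84 with Exendin-4 and 8.58 with DMSO (-1.33 ± 0.20, SE; limma adjusted p = 0.0291). Nkx2-2, a transcription factor of beta-cell identity, had 12.76, 12.48, 12.43 and 12.28 with BayK8644, against 12.72, 13.00, 12.85 and 13.01 with Exendin-4 and 12.67, 12.86, 12.71 and 12.92 with DMSO. It was lower with BayK8644 at 2, 6 and 24 h but not at 0.5 h, and was called at 2 and 24 h (-0.52 and -0.73, limma adjusted p = 0.034 and 0.00438).

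Several genes were called between the agents at 6 or 24 h and not earlier. Those given here, Il4, Kcnh1, Sst and Ccnd2, were not called in the late minus early test below. Their calls at 1 time and not at another therefore do not show a change with time. Il4, a cytokine gene known as a calcineurin and NFAT target in T cells, had 4.28, 5.80, 7.02 and 6.87 with BayK8644, against 4.28, 3.79, 3.95 and 3.78 with Exendin-4 and 4.29, 3.66, 4.01 and 3.75 with DMSO. It left the level of the other groups from 2 h on, and was called at 6 and 24 h (3.08 and 3.09 ± 0.35, SE; limma adjusted p = 0.00717 and 0.00438). The Exendin-4 and DMSO values of Il4 at those times lay near or under log2 4, so the floor may set part of these differences. Kcnh1, a voltage-gated potassium channel, had 2.81, 3.89, 5.40 and 5.92 with BayK8644, against 2.96, 2.89, 2.89 and 2.99 with Exendin-4 and 2.83, 3.04, 2.81 and 2.99 with DMSO. All Exendin-4 and DMSO values were near the floor, so Kcnh1 passed the filter only through arrays with BayK8644. Its fitted difference of 2.51 at 6 h and 2.93 at 24 h (limma adjusted p = 0.0244 and 0.00855) is thus set in part by the floor and is no measure of the fold. Sst, the hormone somatostatin of delta cells, had 5.10, 5.12, 5.41 and 7.37 with BayK8644, against 5.12, 5.12, 5.11 and 5.13 with Exendin-4 and 5.12, 5.09, 5.12 and 5.14 with DMSO. It stood apart on the 24 h array (2.24 ± 0.25, SE; limma adjusted p = 0.00438). The summed intensity of the alpha, delta and PP cell markers was 82170 to 100100 with BayK8644, 82230 to 88740 with Exendin-4 and 81240 to 84270 with DMSO. Ttr of that list made up nearly all of the sum, with mean log2 levels of 16.41, 16.36 and 16.33 in these groups. Gcg came next with 9.62, 9.50 and 9.34, so the sum says little on Sst or on delta cells. The part of that list in the result was not tested. Ccnd2, a cyclin of G1, had 13.24 and 13.50 at 6 and 24 h with BayK8644, against 12.74 and 12.98 with Exendin-4 and 12.54 and 12.68 with DMSO (differences 0.49 and 0.53, limma adjusted p = 0.0321 and 0.0192).

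The change of the difference with time was tested itself, as the mean of 6 and 24 h minus the mean of 0.5 and 2 h. It was called for 7 genes (0.066%), with 6 later (0.0566%) and 1 earlier (0.00943%). Cox6a2, a cytochrome oxidase subunit known from heart and skeletal muscle, had 4.30, 4.33, 4.95 and 7.10 with BayK8644, against 4.23, 4.15, 4.32 and 4.32 with Exendin-4 and 4.07, 4.31, 3.99 and 4.33 with DMSO. All its Exendin-4 and DMSO values lay near the filter level of log2 4, so the floor may set part of its difference. The late minus early value of Cox6a2 was 1.58, that of Spry4 1.56, of Etv5 1.41, of Dclk1, a microtubule-associated kinase, 1.24, of Shisa2 0.89 and of Hspb6, a small heat shock protein, 0.84. Egr2 had -1.91, and the limma adjusted p-values of the 7 lay between 0.0335 and 0.0456. Without the DMSO or the combination array of 24 h 10 genes were called, and without any other single array 0 or 1.

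For some genes both agents lay above DMSO at most times and no difference between them was called. Fosl2, an AP-1 subunit, had 5.36, 5.99, 5.51 and 5.94 with BayK8644, against 6.09, 6.38, 5.52 and 6.08 with Exendin-4 and 4.48, 4.39, 4.96 and 5.81 with DMSO. The agents' values overlapped and the difference was -0.31 ± 0.30 (SE; limma adjusted p = 0.722), which does not show that they act alike. Tac1, the precursor of substance P, had 5.71, 7.40, 8.35 and 6.81 with BayK8644, against 5.25, 7.26, 7.13 and 6.70 with Exendin-4 and 5.70, 5.59, 5.99 and 5.54 with DMSO. Its difference was 0.48 ± 0.43 (SE; limma adjusted p = 0.705).

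With both agents together the called genes mostly stood where BayK8644 alone had put them. The mean of the 4 combination arrays lay nearer to BayK8644 than to Exendin-4 for 49 of the 50 genes of the class above DMSO with BayK8644, with Vegfa as the exception, and for 19 of the 25 of the class below it. For Depdc5, Btbd11 and Wdhd1, the class above DMSO with Exendin-4, it lay nearer to Exendin-4. Npas4 had 8.94, 8.80, 8.44 and 9.11 with the combination, all of them far above DMSO. Pde4b had 10.45, 10.16, 10.32 and 9.99 with the combination, between the agents at every time and -0.06 from DMSO on average. Gadd45a had 12.27, 12.09, 11.94 and 11.43, also between the agents at each time. Depdc5 with the combination stood 0.27 above DMSO, against 0.28 with Exendin-4 and -0.03 with BayK8644. Vegfa had a mean of 10.74 ± 0.18 with the combination, beside 10.72 ± 0.13 with DMSO (SD over the 4 times, n = 4 each, 1 array a time). For 3 of the genes above DMSO with either agent, the combination stood higher than each alone at all 4 times: Nr4a1 had 14.00, 12.17, 11.33 and 10.98, Fosl2 had 7.81, 7.29, 6.88 and 6.63, and Tac1 had 6.39, 10.14, 10.14 and 8.25. Nr4a3 had 7.54 at 0.5 h and 6.42 at 2 h with the combination, against 4.64 and 4.63 with BayK8644 and 4.64 and 5.75 with Exendin-4. The combination was described and not tested.

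**Figure D4:**
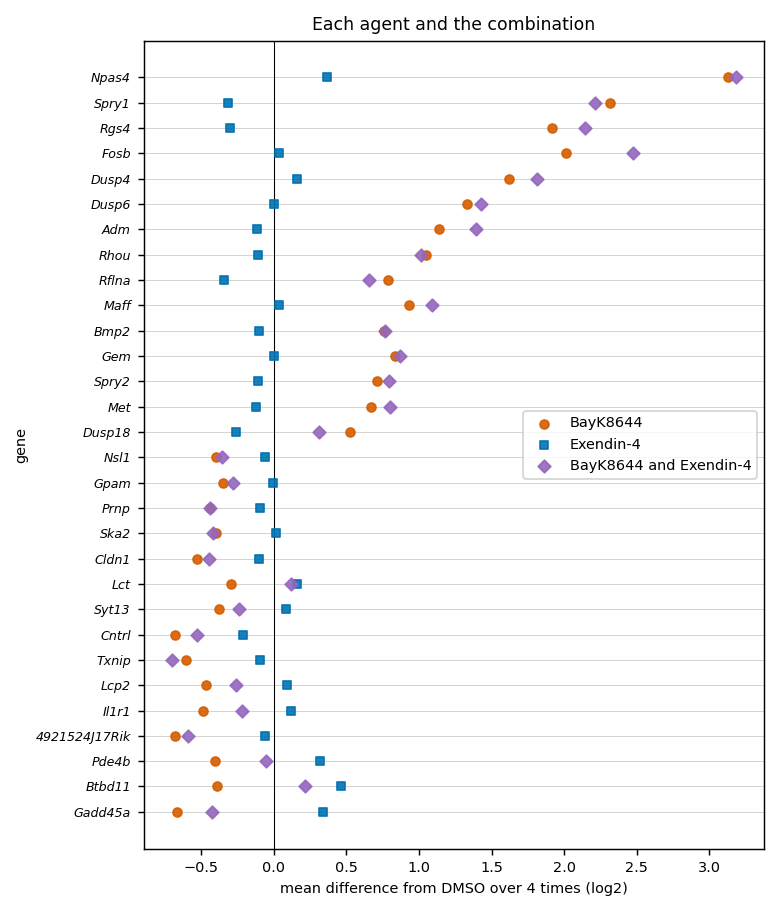
Mean log2 difference from DMSO over the 4 times for BayK8644 (circles), Exendin-4 (squares) and the combination (diamonds), for the 15 called genes with the largest positive and the 15 with the largest negative difference between the agents. The diamonds lie near the circles for Npas4 (3.13 for BayK8644, 3.19 for the combination) and between the symbols for Pde4b.

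The other gene groups are given by the same counts, to be read beside the 0.49% higher and 0.264% lower among all genes tested. Among 23 measured immediate-early genes, 3 were higher with BayK8644 over the 4 times (Fosb, Maff and Trib1) and 0 lower, with a median of 0.22 between the agents. Among 8 Nr4a and calcium-induced factors, Npas4 and Nfil3 were higher, with a median of 0.21. Among 20 genes of sterol synthesis 0 were called over the 4 times and 2 at 2 h, and 18 had a positive difference, with a median of 0.20, against 4926 of all 10610 genes and -0.01. Of 32 genes of G2/M and mitosis 0 were called and 3 had a positive difference, with a median of -0.11. Of 26 genes of the unfolded protein response 0 were called, with a median of 0.07, and of 20 beta-cell identity genes 0 were called over the 4 times, with a median of -0.02. At single times, 1 of these 20 was called lower with BayK8644 at 2 h, 1 at 6 h and 2 at 24 h. Of 17 genes of glycolysis, hypoxia and ChREBP, Adm and Vegfa were higher and Txnip was lower. Of 11 measured calcineurin and NFAT genes 0 were called over the 4 times, and Il4 was the 1 called at 6 and at 24 h. Rcan1, a calcineurin inhibitor often used as a readout of that pathway, had 9.67, 9.66, 9.70 and 9.70 with BayK8644, against 9.71, 9.67, 9.71 and 9.46 with Exendin-4. These lists were chosen with earlier results of these data known. They were described by counts and medians, and no list was tested.

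**Figure D5:**
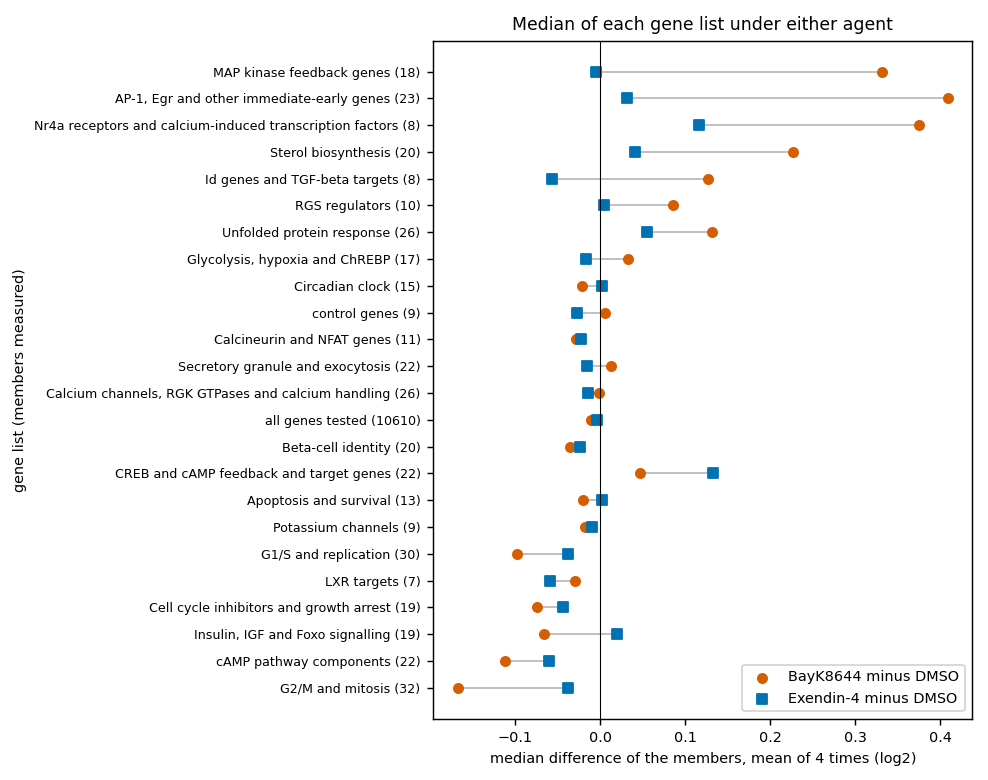
Median log2 difference from DMSO over the 4 times of the measured members of each gene list (number in brackets) with BayK8644 (circles) and with Exendin-4 (squares). MAP kinase feedback genes have 0.33 with BayK8644 and -0.01 with Exendin-4, and CREB and cAMP targets 0.05 and 0.13, and either value uses the same DMSO arrays.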

How the data were processed

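RNA of R7T1 cells was hybridised to 16 1-colour Affymetrix arrays, 4 for each of BayK8644, Exendin-4, their combination and DMSO. RNA was column-purified, checked for integrity and biotin-labelled after 1 round of amplification, per the labels' protocols. The authors deposited intensity on a linear scale. GCRMA made it, per the submitters' processing notes, in a version not given in the sources used here. GCRMA corrects background by probe sequence and normalizes by quantiles, so low values gather near a floor. Log2 was taken here, with no pseudocount and no further normalization, of the deposited intensity of 45101 probe sets.

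Of these, 34945 had 1 gene symbol in the platform annotation, 932 had several, 9160 had none and 64 were controls. Of the 34945, 34741 matched a RefSeq record. Probe sets had to reach log2 4 on at least 2 of the 16 arrays, which 19204 did, and each gene was read from its brightest probe set. Of 47 called genes with more than 1 probe set above the filter, all probe sets had the same sign in 44, and Spred2, Maf and Mbp were the exceptions.

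The tests used limma 3.58.1 under R 4.3.3, by lmFit and eBayes with an intensity trend, and Benjamini-Hochberg adjustment over all 10610 genes and a threshold of 0.05. The model over the times held time and treatment on all 16 arrays (9 residual degrees of freedom). The model by time held an effect of each agent at each time (4 residual degrees of freedom), in which the difference between the agents equals that of their arrays. The scripts were tested on simulated data. Genes were named as the 15 largest differences in each direction, up to 8 in each direction at each time and in the late minus early test, a fixed set of genes of these pathways, and up to 4 members of each list. Tent5a, Ptger4, Spred2, Depdc5, Wdhd1, Eps8, Dgke, Myadm and Tubb6 fall outside that rule and were named after their values were seen. Members and gene lists were chosen with earlier results of these data known. Alternatives were other filters, scalings, probe set rules and fits, and leaving out arrays or times. The number of arrays limits the precision.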

Additional observations from a re-analysis of the deposited data

Results flagged for a closer look

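Of 70 genes looked at, 12 had a time at which BayK8644 minus Exendin-4 (log2) lay far from the other 3 times, where chance gives about 1 in 20 for genes not chosen by their values. These 70 were chosen with results of these data known, so that rate is no reference for the 12. At 0.5 h the difference was larger than at the other times for Egr2 (4.30, others -0.06 to 0.23), Fos (2.16, others 0.48 to 0.61) and Dusp1 (0.74, others -0.20 to -0.12). It was smaller at 0.5 h for Spry1 (1.12, others 2.91 to 3.26), Adm (0.94, others 1.33 to 1.40), Rflna, an actin regulator (0.03, others 1.46 to 1.57), and Btbd11 (-0.03, others -1.16 to -1.07). Rgs2, which shortens Gq signalling, had -0.58 at 0.5 h, beside 0.26 to 0.29 later. At 2 h Nr4a3 had -1.12 (others -0.01 to 0.14) and Ppargc1a had -1.82 (others 0.06 to 0.22). At 24 h Sst had 2.24 (others -0.02 to 0.30) and Rcan1 had 0.24 (others -0.04 to -0.01). Each of these values comes from 1 array of each agent.

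The late minus early test was passed by Cox6a2 (1.58), Spry4 (1.56), Etv5 (1.41), Dclk1 (1.24), Shisa2 (0.89), Hspb6 (0.84) and Egr2 (-1.91), by limma with adjusted p-values between 0.0335 and 0.0456.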

How the results depend on the processing

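The 80 genes called over the 4 times became 31 with no filter on low values, 48 without an intensity trend, 7 in a fit to the 8 arrays of the agents alone, and 12, 8 and 20 without all arrays of 2, 6 or 24 h, against 469 without those of 0.5 h. Without the time block (no replicate block) the count was 14. One array left out gave 13 to 270. The labels carry no replicate numbers beyond the times, so no other pairing was fitted. The percentage of calls that were higher with BayK8644 was 65 and lay within 10 points of that under both other scalings (70.5 after a further quantile normalization). It was not stable in other settings. It was 51 without all arrays of 0.5 h, 51.7 without the BayK8644 array of 0.5 h, and 85.7 in the 8 arrays of the agents alone. For BayK8644 minus DMSO the 89 became 44 with no filter, 52 without a trend, 44 in the 12 arrays without the combination, 10 without the time block, and 591, 5, 5 and 17 without all arrays of 0.5, 2, 6 or 24 h, and 16 to 305 with 1 array left out. Leaving out the arrays of 0.5, 2, 6 or 24 h one by one gave 251, 19, 16 and 20 for BayK8644 and 305, 19, 20 and 32 for DMSO, and 149 for the combination array of 0.5 h. Exendin-4 minus DMSO gave 0 in every alternative. By time, leaving out 1 array gave 1 to 4 called genes at 0.5 h, 0 to 51 at 2 h, 0 to 100 at 6 h, 0 to 365 at 24 h and 0 to 10 for the late minus early test. Without a trend the counts at 2, 6 and 24 h were 25, 30 and 65. At 6 h no filter gave 43 and the mean of all probe sets of a gene 36, and that mean gave 0 in the late minus early test. At an unadjusted p under 0.01 the classes held 216 genes above and 212 below DMSO with BayK8644, and 48 above and 62 below it with Exendin-4, with 144 on opposite sides of DMSO. Of the 80 called genes, Npas4, Trib1, Tent5a and 4921524J17Rik kept their call in every alternative, and 0 changed sign. The causes of these changes were not tested.

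Some uncalled differences changed sign, and not all of them were near 0. Over the 4 times Ppargc1a had -0.36, Nr4a3 -0.25 and Pde10a -0.15, and these signs depended on the arrays of 2 h. Without all arrays of 0.5 h Nr4a2 had 0.0475, Dusp1 -0.145 and Igf1r 0.0127. Without 2 h Nr4a3 had 0.0434, Rgs2 -0.0075, Ppargc1a 0.131, Pde10a 0.0267 and Ins2 0.0114. Without 6 h Rgs2 had -0.0092 and Irs2 0.1093. Without 24 h Nr4a2 had 0.0219, Rgs2 -0.001, Irs2 0.1025, Gcg -0.0038, Rcan1 -0.0226, Ins2 2e-04 and Cacna1c 0.075. Centring gave Nr4a2 4e-04, and the mean of probe sets gave Actb -0.013. With 1 array left out the range was -0.0672 to 0.0653 for Nr4a2, -0.0773 to 0.1532 for Dusp1, -0.0345 to 0.2531 for Rgs2, -0.5306 to 0.0649 for Ppargc1a, -0.2676 to 0.1204 for Irs2, -0.0109 to 0.0653 for Rcan1, -0.0591 to 0.0016 for Ins2, -0.0826 to 0.0655 for Cacna1c and -0.0498 to 0.0137 for Igf1r.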

Other observations

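Probe sets without a single gene symbol were left out of the comparisons. Of 2520 of them above the filter, 0 were called between BayK8644 and Exendin-4 over the 4 times by limma, with 207 at an unadjusted p under 0.05 and a smallest adjusted p of 0.238. The share of the residual variation of the model over the times was 12.1% at 0.5 h, 25.5% at 2 h, 23% at 6 h and 39.4% at 24 h. The 3' minus 5' difference of the Actb control probe sets was 0.604 to 0.687 (log2) on the BayK8644 arrays and 0.669 to 0.802 on the Exendin-4 arrays. Sik1, a kinase that cAMP induces, stayed between 3.03 and 3.23 on all 16 arrays, under the filter level.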
